A study of Saccharomyces cerevisiae S288C with 8 samples.

Results

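The genes for the proteins of the cytoplasmic ribosome were examined in 4 lists of Cse4 ChIP-seq peaks from budding yeast. Members were the nuclear protein-coding genes of the R64 (sacCer3) build whose symbol is RPL, RPS or RPP followed by a digit, which gave 138 of 6002 genes. Of these, 81 encode proteins of the large subunit and 56 proteins of the small subunit. The remaining gene, RPP1, matches by its symbol but encodes a subunit of RNase P and RNase MRP, enzymes that process RNA, and it is counted in the 138 but in neither subunit. Introns are annotated in 89 members, and 118 members form 59 pairs of paralogs whose symbols differ only in a final A or B.

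Ribosomal protein genes are among the most highly transcribed genes of growing yeast, and they carry a large part of the introns of this genome. Their transcription is coordinated by Rap1, which binds their promoters with Fhl1, Ifh1 and, at many of them, Hmo1. Cse4 is the yeast form of CENP-A, the histone H3 variant that marks the centromere, and Cse4 found elsewhere is called mislocalized. Cdc7 is the catalytic subunit of the Dbf4-dependent kinase.

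The strains were wild type (WT) and cdc7-7, a conditional allele of CDC7, each with Cse4 expressed from its own promoter or overexpressed from a galactose-inducible promoter (GAL-CSE4). The labels give the genotypes CSE4-HA, CSE4-HA cdc7-7, GAL-CSE4-FLAG and GAL-CSE4-FLAG cdc7-7. The endogenous strains were grown in glucose and the GAL-CSE4 strains in raffinose/galactose for 1.75 hr, so that the level of Cse4 and the medium cannot be told apart. Cells of all strains were treated with 1% formaldehyde for 20 min. An anti-FLAG gel is given for the precipitation in each strain, whereas the label of the endogenous strains names an HA tag and the study's text a Flag tag. For every strain 1 ChIP library and 1 input library were sequenced. There is thus no replicate spread to compare a difference with and no p-value is given. Intervals on shares are 95% Wilson intervals and cover counting error only.

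The lists held 811 peaks (WT endogenous), 183 peaks (cdc7-7 endogenous), 46 peaks (WT GAL-CSE4) and 2203 peaks (cdc7-7 GAL-CSE4). A peak lay at 15 of the 16 centromeres in cdc7-7 GAL-CSE4 and at all 16 in the others. The median background at the centromere peaks, a measure of the depth of a library, was 200.3 fragments in WT endogenous, 76.17 in cdc7-7 endogenous, 37.89 in WT GAL-CSE4 and 145.6 in cdc7-7 GAL-CSE4. The part of this difference in depth in the counts below was not tested. The fold enrichment of a peak is the ChIP pileup at its summit, the base with the most fragments, over the local background. The lowest fold enrichment that was called was 1.18, 1.38, 1.63 and 1.1, in the same order.

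Most ribosomal protein genes had a peak in the WT endogenous list. In cdc7-7 GAL-CSE4 the share of them with a peak was lower than that of all genes. The study itself describes endogenous Cse4 as enriched primarily at centromeres in both strains, and as not mislocalized to distinct other loci in cdc7-7. The endogenous peaks at members were weak, with a median fold enrichment of 1.51 in WT endogenous. A member was counted where a peak overlapped its coding region, introns included, or the 500 bp upstream of its start codon. In WT endogenous, 121 of 138 members had such a peak (87.7%, 81.2 to 92.2), against 16.8% of all genes. In cdc7-7 endogenous, 49 members had a peak (35.5%, 28.0 to 43.8), against 3.77% of all genes. In WT GAL-CSE4, 0 of 138 members had a peak, with an interval up to 2.71%, against 0.9% of all genes. At that share 1.24 members would have a peak, so a lower frequency among the members was not detectable at this depth. In cdc7-7 GAL-CSE4, 44 members had a peak (31.9%, 24.7 to 40.1), against 51.4% of all genes.

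In the endogenous lists more members had a peak in the coding region than in the upstream region, and in cdc7-7 GAL-CSE4 fewer had. A peak overlapped the coding region of 119 members in WT endogenous (86.2%, against 11.6% of all genes) and of 49 in cdc7-7 endogenous (35.5%, against 2.82%). It did so at 0 in WT GAL-CSE4 (against 0.583%) and at 31 in cdc7-7 GAL-CSE4 (22.5%, against 37.9%). The upstream 500 bp held a peak at 35 members in WT endogenous (25.4%, against 9.58% of all genes) and at 5 in cdc7-7 endogenous (3.62%, 1.56 to 8.2, against 1.67%). It held one at 0 in WT GAL-CSE4 (against 0.516%) and at 42 in cdc7-7 GAL-CSE4 (30.4%, against 47.0%). In both regions members were above the share of all genes in WT endogenous and below it in cdc7-7 GAL-CSE4. Members are shorter than other genes, with a median span of 771 bp from start to stop codon against 1230 bp. Of the 3967 other genes with a span in the members' range, 15.4% had a peak in WT endogenous, 3.48% in cdc7-7 endogenous and 51.5% in cdc7-7 GAL-CSE4, which is close to the share of all genes. The windows of the members make up 1.42% of the nuclear genome, and they held 127 peaks of WT endogenous (15.7% of that list), 49 of cdc7-7 endogenous (26.8%) and 45 of cdc7-7 GAL-CSE4 (2.04%).

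**Figure D1:**
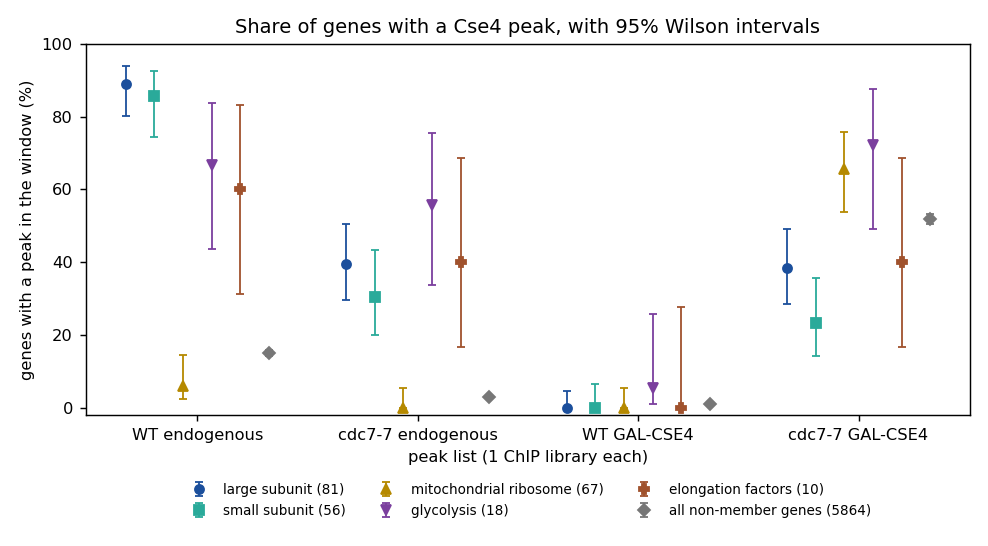
Share of genes with a peak in the coding region or the upstream 500 bp (y axis, %) in each of the 4 peak lists (x axis), for the large and small subunit genes, 3 other groups of genes and all genes that are not members. Points are shares and bars are 95% Wilson intervals. The subunits lie at 88.9% and 85.7% in WT endogenous, and in cdc7-7 GAL-CSE4 at 38.3% and 23.2%, below the 51.9% of the other genes.

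Other highly transcribed genes and the genes of the mitochondrial ribosome were counted in the same way. Of 67 mitochondrial ribosomal protein genes, 4 had a peak in WT endogenous (5.97%, 2.35 to 14.4), 0 in cdc7-7 endogenous (interval up to 5.42%) and 44 in cdc7-7 GAL-CSE4 (65.7%, 53.7 to 75.9). The share lies below that of all genes in WT endogenous and above it in cdc7-7 GAL-CSE4, where the members of the cytoplasmic ribosome lie on the other side. The interval in cdc7-7 endogenous includes the 3.77% of all genes, so a lower share was not detectable there. Of 18 glycolytic genes, 12 had a peak in WT endogenous (66.7%, 43.7 to 83.7), 10 in cdc7-7 endogenous (55.6%, 33.7 to 75.4), 1 in WT GAL-CSE4 and 13 in cdc7-7 GAL-CSE4 (72.2%, 49.1 to 87.5). Of 10 genes for translation elongation factors, the counts were 6, 4, 0 and 4 in the same order. The glycolytic genes were thus above the share of all genes in the endogenous lists, as the members were, and their interval in cdc7-7 GAL-CSE4 includes the 51.4% of all genes. ASC1, a protein of the small subunit whose symbol lies outside the rule, had a peak in WT endogenous with a fold enrichment of 1.75 and its summit in the last exon.

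The summits lay mostly within the coding region in the endogenous lists and mostly upstream of it in cdc7-7 GAL-CSE4. For each member the peak with the best q, the p adjusted for the number of tests, was used. In WT endogenous, the summit was in the coding region at 94 of 121 members (77.7%, 69.5 to 84.2), upstream at 9, downstream of the stop codon at 15 and beyond the window on the upstream side at 3. Among the 885 other genes with a peak in that list, 39.2% of the summits were in the coding region and 30.3% were upstream. In cdc7-7 endogenous, 44 of 49 summits were in the coding region (89.8%, 78.2 to 95.6), 5 were downstream and 0 were upstream. In cdc7-7 GAL-CSE4, 24 of 44 summits were upstream (54.5%, 40.1 to 68.3), 12 lay beyond the window, 5 were in the coding region and 3 downstream. The upstream share was 57.0% for the 3044 other genes with a peak in cdc7-7 GAL-CSE4. The median summit lay 503 bp after the first base of the start codon in WT endogenous and 534 bp after it in cdc7-7 endogenous. It lay at -164.5 bp, upstream of the start codon, in cdc7-7 GAL-CSE4, against -152 bp at the other genes.

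**Figure D2:**
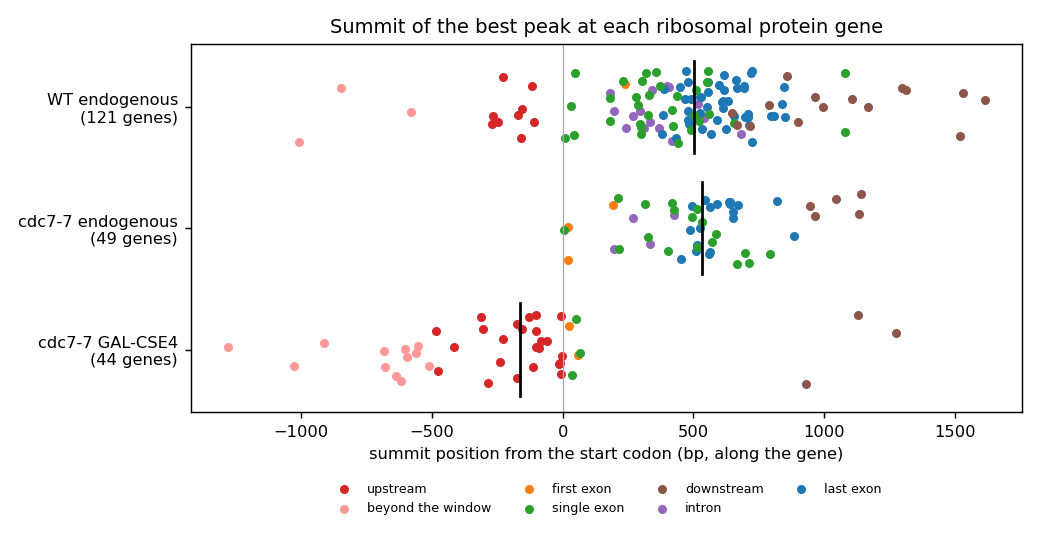
Position of the summit of the best peak relative to the start codon (x axis, bp along the gene) for each member with a peak, in 3 lists (y axis; points are spread vertically for sight only). Colours give the place of the summit and the black bar is the median of the list. The medians lie at 503 and 534 bp in the endogenous lists and at -164.5 bp in cdc7-7 GAL-CSE4.

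The cover of the genes by peaks showed the same shift. In WT endogenous, the share of members covered by a peak rose along the gene from 20.3% at the start codon to 71.7% at 540 bp, whereas the share of other genes was 3.24% at the start codon and 3.75% at 600 bp. In cdc7-7 endogenous, the largest cover of the members was 27.5%, at 520 bp. In cdc7-7 GAL-CSE4, 20.3% of the members were covered at the start codon and 2.17% at 500 bp, against 32.4% and 4.06% of the other genes. A second rise was seen beyond the members in this list, with 23.9% of them covered at 1200 bp, against 6.53% of the other genes. The median span of a member is 771 bp, so that most of this cover lies beyond the stop codon. The other genes have a median span of 1230 bp, so 1200 bp is still within the coding region of many of them. The shares at 1200 bp are thus not from like positions, and cover aligned at the stop codon was not computed.

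**Figure D3:**
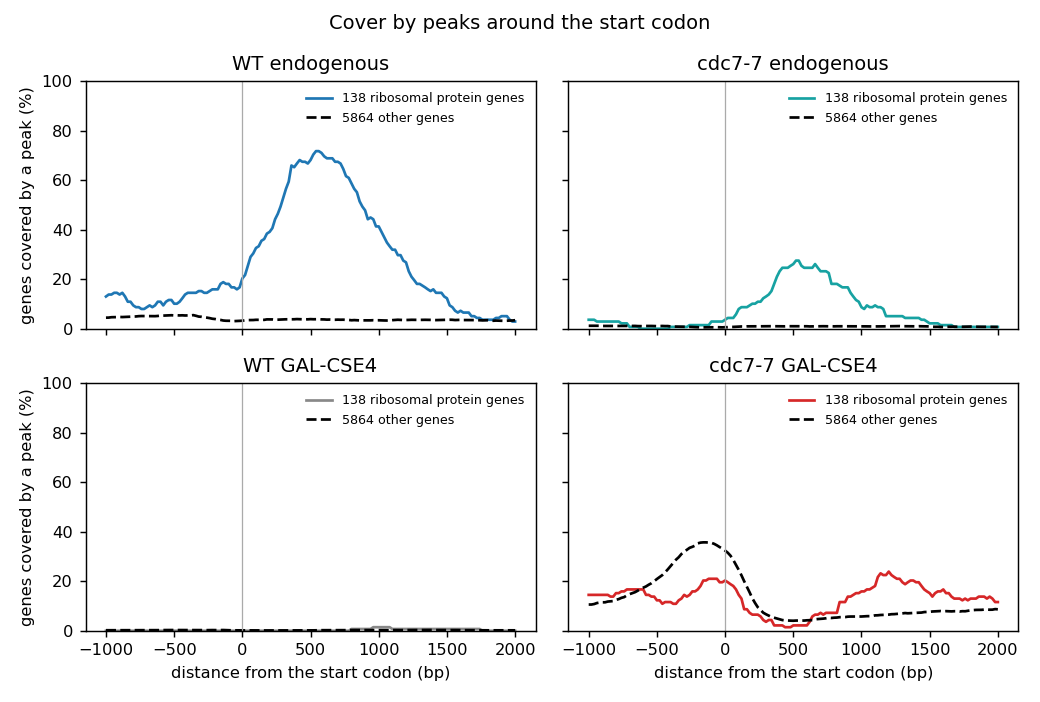
Share of genes covered by a peak (y axis, %) at each distance from the start codon (x axis, bp) for the 138 members (solid line) and the 5864 other genes (dashed line), 1 panel per peak list. The members reach 71.7% at 540 bp in WT endogenous and 27.5% at 520 bp in cdc7-7 endogenous, and they lie below the other genes at the start codon in cdc7-7 GAL-CSE4.

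Among large subunit genes, RPL10, which encodes a protein that joins the subunit late in its assembly, had one of the highest fold enrichments in both endogenous lists. Its fold enrichment was 2.13 in WT endogenous and 2.14 in cdc7-7 endogenous, with pileups of 416 and 163 fragments over backgrounds of 195 and 75.7. The summits lay at 441 and 418 bp, in its single exon. In cdc7-7 GAL-CSE4, its peak had a fold enrichment of 1.44 and a summit at -603 bp, and the peak did not reach the coding region. The stretch of RPL10 that holds both endogenous summits is shown from the RefSeq R64 genome, 5′ to 3′ on the coding strand, since it is among the places of strongest endogenous signal in genes with no paralog. Capitals mark the summit bases of both lists.
RPL10 chrXII:283305-283408 (+ strand): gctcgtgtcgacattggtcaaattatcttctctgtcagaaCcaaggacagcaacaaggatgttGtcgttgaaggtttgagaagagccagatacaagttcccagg
In RPL10 each 50-base stretch of the coding region occurs once in the genome within 2 mismatches, so reads from it could be placed.

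RPL3, a protein near the peptidyl transferase centre, had a fold enrichment of 1.95 in WT endogenous, 2.03 in cdc7-7 endogenous and 1.3 in cdc7-7 GAL-CSE4. Its endogenous peaks were 1500 bp (chrXV:444695-446194) and 1406 bp wide with summits at 654 and 667 bp, and the GAL-CSE4 peak was 336 bp wide with a summit at -636 bp. RPL8A, which encodes a large subunit protein with a paralog, had fold enrichments of 2.35 in WT endogenous and 2.1 in cdc7-7 endogenous. The summit of RPL8A was at 491 bp in WT and at 1046 bp, downstream of the stop codon, in cdc7-7. RPS1A, a small subunit protein gene, had 1.93 and 1.77 with summits at 521 and 495 bp. The value was thus higher in cdc7-7 at RPL3 and higher in WT at RPL8A and RPS1A.

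A peak in 3 lists was found at 12 members (8.7%), against 1.7% of all genes, and 0 members had one in all 4, against 31 of the 6002 genes (0.516%). The 12 were RPL10, RPL14B, RPL15A, RPL20B, RPL3, RPL32, RPL39, RPL8B, RPL9B, RPP0, RPS3 and RPS9A, each with a peak in both endogenous lists and in cdc7-7 GAL-CSE4. In RPP0, the base of the ribosomal stalk, the summits lay at 327 bp in WT endogenous, at 712 bp in cdc7-7 endogenous and at -91 bp in cdc7-7 GAL-CSE4, with fold enrichments of 1.56, 1.70 and 1.45. In RPS3, a protein at the entry of the mRNA channel, the summits lay at 372, 697 and -618 bp with fold enrichments of 1.73, 1.62 and 1.38. In RPL39, which lines the exit tunnel, the endogenous summits lay in the intron at 242 and 198 bp with fold enrichments of 1.54 and 1.84, and the GAL-CSE4 summit lay at -683 bp, where the same peak also covers RPS22A. RPS9A had fold enrichments of 1.63, 1.86 and 1.86, and in cdc7-7 GAL-CSE4 it had a second peak of 1.5 in the last exon at 968 bp. In 10 of the 12 the GAL-CSE4 summit lay upstream of the start codon. RPL9B was an exception, with a GAL-CSE4 peak of 2.03 whose summit lay at 1127 bp, downstream of the gene, and RPL14B the other, with a summit at 23 bp. The peak of RPL14B in WT endogenous is the 2436-bp peak of the centromere of chromosome VIII (chrVIII:103854-106289), with a fold enrichment of 5.07 and a summit at 1314 bp. Without centromere peaks, 120 members had a peak in WT endogenous.

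**Figure D4:**
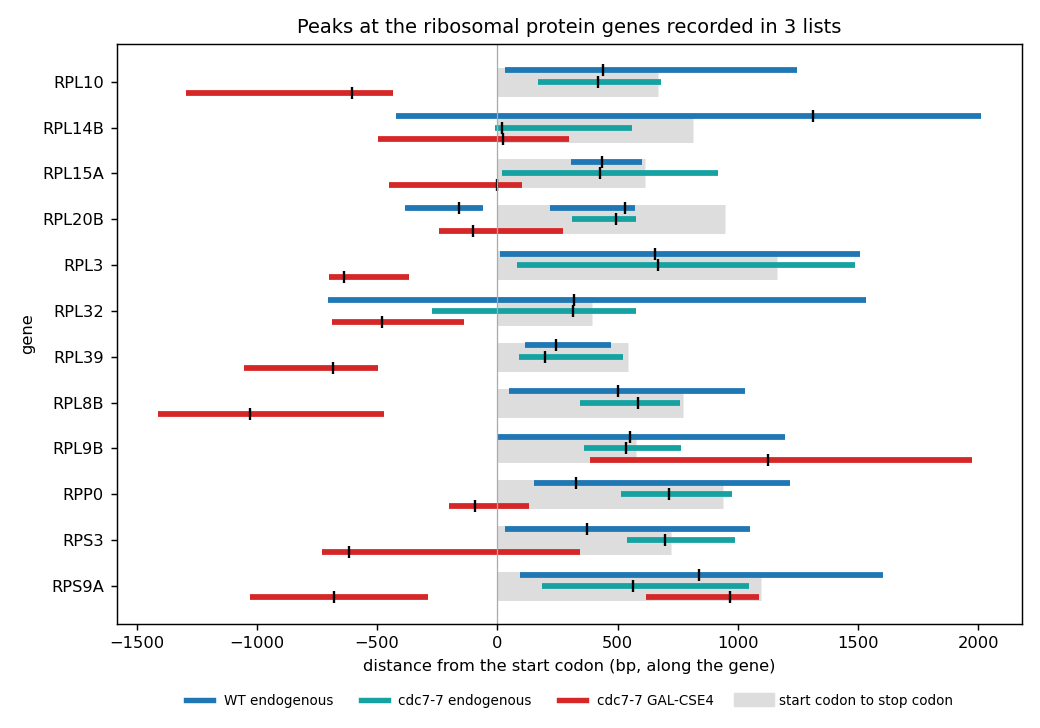
Peaks (coloured bars) and their summits (black ticks) at the 12 members with a peak in 3 lists, by distance from the start codon along the gene (x axis, bp). Grey boxes run from start to stop codon. The red bars of cdc7-7 GAL-CSE4 have their summits upstream of the start codon in 10 of the 12 genes, as at RPP0 (-91 bp), and most blue and teal bars of the endogenous lists lie over the coding region, as at RPL10 (441 and 418 bp). RPL20B is an exception, with a WT endogenous peak upstream of the gene (summit at -159 bp).

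All 49 members with a peak in cdc7-7 endogenous also had one in WT endogenous, which is 100% of the former and 40.5% of the latter, and the peaks overlapped at all 49. The median distance between their summits was 44 bp, and 33 pairs of summits were within 100 bp of each other. For the other genes, 145 of 177 with a peak in cdc7-7 endogenous were also found in WT endogenous (81.9%). In WT, the median fold enrichment was 1.64 at the 48 members also found in cdc7-7 endogenous and 1.48 at the 72 not found there, the centromere peak left out. Over the 48 members with a peak in both lists, the fold enrichment was higher in cdc7-7 at 29 and higher in WT at 19, with a Pearson's r of 0.697 and a Spearman's rho of 0.564 across genes, which are not independent replicates and were taken because they were called in both lists. Of the 44 members of cdc7-7 GAL-CSE4, 38 also had a peak in WT endogenous (86.4% of the former, 31.4% of the latter). This is close to the 87.7% of all members with a peak in WT endogenous. The peaks overlapped at 23 of the 38, and the median distance between summits was 722 bp. The GAL-CSE4 summit lay upstream of the endogenous one at 28 of the 38. For the other genes, 647 of 3044 with a peak in cdc7-7 GAL-CSE4 were also found in WT endogenous (21.3%). Their median distance between summits was 268 bp, and the GAL-CSE4 summit lay upstream at 357 of the 647.

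The promoter peaks of cdc7-7 GAL-CSE4 were found at 42 members. RPL20A and RPL20B, paralogs of the large subunit, both had a peak there, with summits at -101 and -102 bp and fold enrichments of 1.5 and 1.67. RPL20A had no peak in the other lists. RPL42A had a fold enrichment of 1.65 in cdc7-7 GAL-CSE4 with a summit at -102 bp, and in WT endogenous a peak of 1.36 with a summit at -117 bp. In RPL14A and RPL14B the GAL-CSE4 summit was in the first exon, at 60 and 23 bp, with fold enrichments of 1.46 and 1.77, and RPL14B also had its cdc7-7 endogenous summit there, at 20 bp, with 1.48. The 5 highest fold enrichments at members in cdc7-7 GAL-CSE4 had their summits farther from the start codon. RPL15B had 2.30 at -554 bp in a peak shared with the windows of NCW1 and YMR122C, RPL9B had 2.03 at 1127 bp, RPS8A had 1.91 at -911 bp, RPS9A had 1.86 at -678 bp, and RPS26B had 1.79 at -1278 bp in a peak shared with COM2. The summits of RPL15B, RPS8A, RPS26B and RPS9A lie beyond the 500 bp window, and that of RPL9B lies downstream of the gene. The widest of the peaks in this list at members were those of RPS8A (1803 bp), RPL38 (1638 bp) and RPL9B (1588 bp).

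Stretches that hold these summits are shown for the RPL20 pair, whose copies had summits at nearly the same distance, and for RPL42A and RPP0, from the RefSeq R64 genome, 5′ to 3′ on the coding strand. Capitals mark a match to the Rap1 motif ACCCNNACA, searched on both strands, and the single summit base of cdc7-7 GAL-CSE4. RPL42A and RPP0 held no match in the 500 bp, and only the summit base is in capitals there.
RPL20A chrXIII:754317-754603 (- strand): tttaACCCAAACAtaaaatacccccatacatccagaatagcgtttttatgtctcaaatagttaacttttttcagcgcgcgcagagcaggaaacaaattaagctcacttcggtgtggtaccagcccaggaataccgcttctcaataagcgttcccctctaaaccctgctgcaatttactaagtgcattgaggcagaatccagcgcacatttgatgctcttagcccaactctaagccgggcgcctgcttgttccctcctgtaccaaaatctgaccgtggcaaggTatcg
RPL20B chrXV:901292-901554 (- strand): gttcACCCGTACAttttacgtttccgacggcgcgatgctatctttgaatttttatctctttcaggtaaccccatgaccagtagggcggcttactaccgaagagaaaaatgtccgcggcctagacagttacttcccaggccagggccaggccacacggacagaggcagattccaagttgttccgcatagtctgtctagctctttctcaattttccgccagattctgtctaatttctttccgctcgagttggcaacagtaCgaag
RPL42A chrXIV:331200-331240 (+ strand): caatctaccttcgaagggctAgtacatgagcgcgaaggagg
RPP0 chrXII:805776-805816 (+ strand): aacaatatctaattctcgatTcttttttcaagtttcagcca
In RPL20A the summit lay 274 bp after the centre of the match, and in RPL20B 250 bp after it. A match was found in the 500 bp upstream of 54 of 138 members (39.1%), against 329 of 6002 promoters of the same length (5.48%), and the median centre of the matches was at -318.5 bp. The motif was present at 14 of the 42 members with a promoter peak in cdc7-7 GAL-CSE4 (33.3%) and at 40 of the 96 without (41.7%). Of the 15 members with both a match and a peak in this list, 1 had the match inside the peak, and the median distance from match to summit was 247 bp. In WT endogenous this distance was 866 bp over 47 members, and the match lay inside a peak at 5. The Reb1 motif TTACCCG was found at 7 members (5.07%, against 10.1% of all promoters), a run of TTTTTTTT at 69 (50.0%, against 44.2%) and the Abf1 motif at 13 (9.42%, against 18.1%). A match is a description of the sequence and not a measured binding site.

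The orientation of the neighbouring gene was recorded because members often share their upstream region. Of the 77 members with a divergent upstream neighbour, 27 had a peak in the upstream 500 bp in cdc7-7 GAL-CSE4 (35.1%), and of the 61 with a tandem neighbour 15 did (24.6%). The shares were 53.4% and 41.1% for the other genes. Of the 45 peaks at members in this list, 28 also reached the window of another gene, and in 28 the start codon nearest to the summit was that of a member. In WT endogenous, 67 of 127 peaks reached another window, and at 104 the start codon nearest to the summit was that of a member.

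The difference between the shares of large and small subunit genes was within the counting error in each list. In WT endogenous, 72 of 81 large subunit genes (88.9%) and 48 of 56 small subunit genes (85.7%) had a peak, a difference of 3.17 percentage points with a Newcombe interval from -7.89 to 15.7. This difference turned to -5.31 points with peaks of a -log10 q of at least 5, and to -11.2 points in the upstream 500 bp alone. In cdc7-7 endogenous the counts were 32 (39.5%) and 17 (30.4%), a difference of 9.15 points (-7.20 to 24.2). In cdc7-7 GAL-CSE4 they were 31 (38.3%) and 13 (23.2%), a difference of 15.1 points (-0.884 to 29.3), so that the interval includes 0 in each of the 3 lists. RPP1, the gene outside both subunits, had 1 peak, in WT endogenous, with a fold enrichment of 1.29.

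Members with and without an intron were compared in the same way. In cdc7-7 GAL-CSE4, 22 of 89 members with an intron (24.7%) and 22 of 49 without (44.9%) had a peak, a difference of -20.2 points with an interval from -36.0 to -3.81 for counting error. The interval included 0 with 250 bp upstream (-29.1 to 1.85), with the coding region alone (-24.9 to 4.77) and with peaks of a -log10 q of at least 5 (-28.0 to 1.81). It narrowly excluded 0 with the upstream 500 bp alone (-32.1 to -0.0829). Of the 22 peaks at members without an intron, 9 had the summit beyond the window and 3 downstream, whereas 3 of the 22 at members with an intron had it beyond the window and 0 downstream. The counts were 80 (89.9%) and 41 (83.7%) in WT endogenous, and in cdc7-7 endogenous 29 (32.6%) and 20 (40.8%), with intervals from -4.97 to 19.8 and from -24.7 to 8.03. In the upstream 500 bp alone, the difference in WT endogenous turned to -24.0 points, with an interval from -39.3 to -8.41 that excludes 0. Of the 182 other genes with an intron, 31 had a peak in WT endogenous (17%), 13 in cdc7-7 endogenous (7.14%) and 91 in cdc7-7 GAL-CSE4 (50.0%), so the high share in WT endogenous was not seen in intron-containing genes at large.

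Within the spliced members, the endogenous summits lay less often in the intron than its share of the span. The last exon makes up 47.5% and the intron 48.1% of the span of the 89 genes. In WT endogenous, 62 of the 80 spliced members with a peak had the summit in the coding region. It was in the last exon at 46 (57.5% of the 80, 46.6 to 67.7), in the intron at 15 (18.8%, 11.7 to 28.7) and in the first exon at 1. In cdc7-7 endogenous, 26 of 29 had the summit in the coding region. It was in the last exon at 19 (65.5% of the 29, 47.3 to 80.1), in the intron at 4 and in the first exon at 3. These percentages include summits outside the coding region, whereas the shares of the span do not, so the counts of 62 and 26 are the like base. In cdc7-7 GAL-CSE4, 17 of 22 spliced members had the summit upstream (77.3%, 56.6 to 89.9), 2 in the first exon and 0 in the intron or the last exon. RPS22B, a small subunit gene with the snoRNA SNR44 in an intron, had a 1988-bp peak in WT endogenous with a fold enrichment of 1.91 and a summit in the last exon at 707 bp, and a cdc7-7 endogenous peak of 1.84 with a summit in the first exon at 20 bp. Its intronless paralog RPS22A had 1.82 in WT endogenous with the summit downstream at 963 bp, in a peak shared with RPS14B, and 1.41 in cdc7-7 GAL-CSE4.

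Both copies of most paralog pairs had a peak in WT endogenous, whereas in cdc7-7 endogenous and cdc7-7 GAL-CSE4 a peak at 1 copy was more frequent than a peak at both. Of 59 pairs, 46 had a peak at both copies in WT endogenous, 10 at 1 copy and 3 at neither. In cdc7-7 endogenous the counts were 6, 21 and 32, and in cdc7-7 GAL-CSE4 they were 5, 26 and 28. Such counts depend on the share of single paralogous members with a peak, 86.4% in WT endogenous, 28.0% in cdc7-7 endogenous and 30.5% in cdc7-7 GAL-CSE4. The counts that these shares alone would give were not computed, so the contrast is not read as a trait of the pairs. Of the 20 members without a paralog, 19 had a peak in WT endogenous, 16 in cdc7-7 endogenous (80.0%) and 8 in cdc7-7 GAL-CSE4. For the 118 members with a paralog, the counts were 102, 33 (28.0%) and 36. The authors kept reads with 1 reportable position, and a median of 79.6% of the 50-base stretches in the coding region of paralogous members occur once within 2 mismatches, against 100% in members without a paralog. The part of this difference in the counts was not tested.

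The 3 pairs without a peak in WT endogenous were RPL11, RPS28 and RPS4. In RPL11A and RPL11B, which encode a large subunit protein bound to the 5S rRNA, 24.0% of the coding stretches were unique. Both copies had a peak in cdc7-7 GAL-CSE4, with fold enrichments of 1.36 and 1.40 and summits at -127 and 35 bp. In the 17 members without a peak in WT endogenous, the median unique share of the coding region was 77.4%, against 85.0% in the 121 with a peak. The 24.0% of RPL11 was the lowest value among the 17, and the lowest among the 121 was 5.42%. In cdc7-7 endogenous the median was 82.5% without a peak and 87.6% with one. The order was the other way in cdc7-7 GAL-CSE4, with 86.5% without a peak and 74.5% with one. The upstream region was unique throughout in 132 of 138 members.

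**Figure D5:**
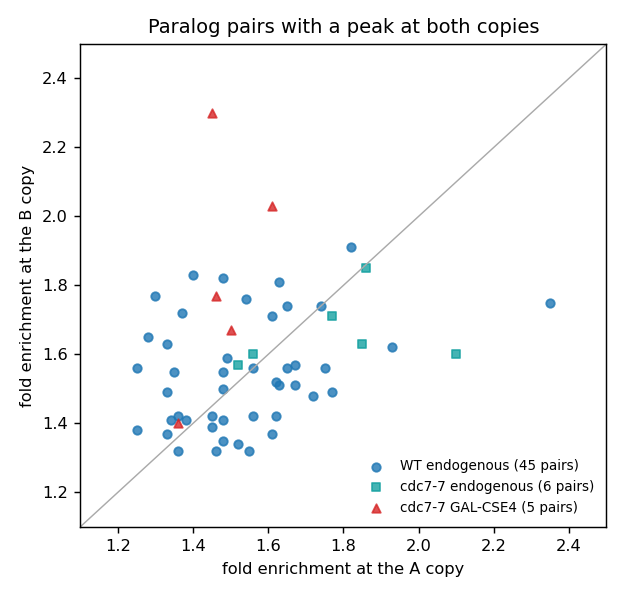
Fold enrichment at the A copy (x axis) and the B copy (y axis) of each paralog pair with a peak at both, in 3 lists. The line marks equal values, and the RPL14 pair of WT endogenous is left out because its B copy lies under the centromere peak. The 45 pairs of WT endogenous fall on both sides of the line, with the A copy higher in 23 and the B copy in 22, and in the 5 pairs of cdc7-7 GAL-CSE4 the B copy is higher.

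Fold enrichment was compared at the pairs with a peak at both copies. All non-centromere peaks at members in WT endogenous lay between 1.22 and 2.35, so close values do not set paralogs apart from other members. No ratio between unpaired members was computed. Over the 45 pairs of WT endogenous with the centromere peak left out, the median ratio of the higher to the lower copy was 1.1, and the largest was 1.36, at RPL34, with 1.3 and 1.77. In cdc7-7 endogenous the 6 pairs had a median ratio of 1.04, and the largest was 1.31 at RPL8. RPS9A and RPS9B had 1.86 and 1.85 in cdc7-7 endogenous and 1.63 and 1.81 in WT endogenous. In cdc7-7 GAL-CSE4 the 5 pairs were RPL11, RPL14, RPL15, RPL20 and RPL9, with a median ratio of 1.21 and a largest of 1.59 at RPL15, where the summit of the A copy lay at -1 bp and that of the B copy beyond the window. The ubiquitin fusion genes were found only in the endogenous lists. RPS31 had fold enrichments of 1.68 in WT and 1.60 in cdc7-7, RPL40A had 1.51 and 1.42, and its paralog RPL40B had no peak in any list.

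The peaks at members were wide in WT endogenous. Their median width was 715.5 bp (range 250 to 2236), against 390 bp at the other non-centromere peaks, and 32 of 126 were at least 1000 bp wide (25.4%), against 42 of 669 (6.28%). The order was the other way in cdc7-7 endogenous, with 1 of 49 (2.04%) against 15 of 118 (12.7%), and in cdc7-7 GAL-CSE4 7 of 45 (15.6%) were that wide against 154 of 2143 (7.19%). The widest was that of RPL32, at 2236 bp, which also reaches the windows of ROX3, SCS22 and MAP2. In cdc7-7 endogenous the median width was 461 bp (range 256 to 1406) against 395.5 bp, and in cdc7-7 GAL-CSE4 it was 469 bp (range 272 to 1803) against 478 bp. The peaks covered a median of 65.2% of the coding region in WT endogenous, with 20 members covered whole. The median in cdc7-7 endogenous was 51.9%, with RPL29, RPL32 and RPS12 among those covered most. In cdc7-7 GAL-CSE4 the median was 13.7%, and RPS22A was covered whole.

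The enrichment at members was low beside the 5.07 of the centromere peak at RPL14B. In WT endogenous, the median fold enrichment at members was 1.51 against 1.36 at the other non-centromere peaks, and the median pileup was 300 fragments where 200.5 were expected from the background. In cdc7-7 endogenous it was 1.68 at both, with 120 fragments over 71.78 at members. In cdc7-7 GAL-CSE4 it was 1.48 against 1.53, with 227 fragments over 149.5. The lowest fold enrichment called in WT GAL-CSE4 was 1.63, and 35 of 126 peaks at members in WT endogenous, 28 of 49 in cdc7-7 endogenous and 14 of 45 in cdc7-7 GAL-CSE4 reached it. The peaks of WT GAL-CSE4 nearest to a member's window lay 142 bp from that of RPL14B, which is the centromere peak, 424 bp from that of RPS26A and 849 bp from that of RPL38. The median GC content around the summits of members was 42.6% in both endogenous lists and 39.6% in cdc7-7 GAL-CSE4. At the other peaks it was similar, 43.6% in WT endogenous, 42.6% in cdc7-7 endogenous and 39.6% in cdc7-7 GAL-CSE4.

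The genes that control or assist the ribosomal proteins were counted in the same way. Of 11 regulators, IFH1 and TOD6 had a peak in WT endogenous, 0 had one in cdc7-7 endogenous, and 7 had one in cdc7-7 GAL-CSE4 (RAP1, HMO1, SFP1, CRF1, TOD6, DOT6 and ABF1). These are 18.2% (5.14 to 47.7) against 16.8% of all genes and 63.6% (35.4 to 84.8) against 51.4%, and the intervals include the shares of all genes. The summits of SFP1, CRF1, TOD6 and ABF1 in cdc7-7 GAL-CSE4 lay beyond the window. RAP1, the activator that binds the members' promoters, had a fold enrichment of 1.68 with a summit at -48 bp in cdc7-7 GAL-CSE4. HMO1, a DNA-binding protein of many of these promoters, had 1.41 with a summit at 78 bp. Of 7 dedicated chaperones, RRB1, the chaperone of Rpl3, had a peak of 1.40 in WT endogenous and of 1.40 in cdc7-7 GAL-CSE4, and SQT1, the chaperone of Rpl10, had 1.47 in cdc7-7 GAL-CSE4. In cdc7-7 GAL-CSE4, 6 members had a peak that were found in no other list (RPL11A, RPL11B, RPL20A, RPL38, RPS28A and RPS4B), and 11 members had no peak in any list. The shares of all genes for these counts were not computed, so they are not read as traits of these members. Of the 3044 other genes with a peak in cdc7-7 GAL-CSE4, only 647 also had one in WT endogenous (21.3%), against 38 of 44 members (86.4%).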

How the data were processed

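Per the study's methods, the authors aligned paired reads to the R64 build with Bowtie 1.0.0, keeping reads with 1 reportable position, deleted duplicate reads with Samtools and called peaks with MACS. The names of the peaks in each list pair 1 ChIP library with the input library of the same strain. Each deposited list holds the position and summit of every peak, the authors' fold enrichment (a ratio of pileup to local background, each with a pseudocount of 1) and, at the summit, the -log10 of the authors' p and q. The number of reads per library was not in the lists. Pileup and background were therefore solved from the fold enrichment and the Poisson -log10 p, and this was tested on simulated data.

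Genes came from the RefSeq annotation of R64. A peak counted for a gene at an overlap of at least 1 bp with the coding region or the 500 bp upstream, and the summit was placed by the annotated exons. Shares have 95% Wilson intervals, and differences of shares Newcombe intervals. The unique share of a gene is that of 50-base stretches occurring once within 2 mismatches. Centromere peaks were left out of medians of width and fold. The genes named were the members with a peak in 3 or 4 lists, the 5 with the highest fold enrichment, the 3 with the widest peaks and the 3 with the largest cover in each list, the paralogs of these, the ubiquitin fusion genes, RPP1, and each regulator or chaperone with a peak. A gene that this rule names is not reported here. Others were named after their values were seen, as where a count of 5 or fewer is listed. The members, lists of genes and tests were chosen with earlier results of these data known. Alternatives were other windows, rules of overlap, thresholds and list lengths. The tools were pandas 2.3.3, scipy 1.17.1, numba 0.67.0, biopython 1.88, numpy 2.4.6 and matplotlib 3.10.9 under Python 3.11.15.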

Additional observations from a re-analysis of the deposited data

Results flagged for a closer look

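The change from WT to cdc7-7 went in opposite directions in the endogenous and the GAL-CSE4 lists. The number of members with a peak fell by 72 with endogenous Cse4, from 121 in WT to 49 in cdc7-7, and rose by 44 with GAL-CSE4, from 0 to 44. With 1 library per strain this difference was not tested. The share of all genes with a peak moved the same way, from 16.8% to 3.77% with endogenous Cse4 and from 0.9% to 51.4% with GAL-CSE4. So did the number of peaks over the whole genome, from 811 to 183 and from 46 to 2203. The median background at the centromeres also moved so, from 200.3 to 76.17 and from 37.89 to 145.6 fragments. At 183 peaks per list the endogenous counts of members were 67 in WT and 49 in cdc7-7, and at 46 peaks 11 and 5. At 46 peaks per list the GAL-CSE4 counts were 0 in WT and 1 in cdc7-7. The part of depth in this pattern was not tested.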

How the results depend on the processing

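Of 111 alternatives over 25 results, 88 left the value within 1.5 times or within its interval. The share of members stayed above that of all genes under 13 of 13 alternatives in both endogenous lists and below it under 13 of 13 in cdc7-7 GAL-CSE4. These alternatives reuse the same peaks and are not independent, and some rest on few members. In cdc7-7 GAL-CSE4 the share was 1.45% against 2.52% at a minimum fold enrichment of 2, and 0.725% against 1.18% with 46 peaks. In cdc7-7 endogenous the upstream share was 3.62%, with an interval (1.56 to 8.2) that includes the 1.67% of all genes. In WT GAL-CSE4 the number of members was 0 throughout. From 0, only the window of 1000 bp upstream could have raised this number, so the other alternatives could not change it. The 12 alternatives of this list are among the 88. With the upstream 500 bp alone the number of members was 35 in WT endogenous and 5 in cdc7-7 endogenous. At a minimum fold enrichment of 1.5 it was 68 in WT endogenous and 20 in cdc7-7 GAL-CSE4, and at a minimum of 2 it was 4, 3 and 2 in WT endogenous, cdc7-7 endogenous and cdc7-7 GAL-CSE4. With each list cut to its 46 best peaks it was 11, 5 and 1 in that order, and with 183 peaks it was 67 in WT endogenous and 3 in cdc7-7 GAL-CSE4. A minimum -log10 q of 5 left 23 members in cdc7-7 endogenous, 20 and 2 summits in the coding region in cdc7-7 endogenous and cdc7-7 GAL-CSE4, and 27 and 2 pairs with both copies in WT and cdc7-7 endogenous. Counting the gene with the nearest start codon left 28 members in cdc7-7 GAL-CSE4, the midpoint of the peak put 1 upstream in cdc7-7 endogenous, and a summit inside the window left 3 pairs in cdc7-7 GAL-CSE4. In WT endogenous, the large minus small subunit difference turned to -11.2 points with the upstream 500 bp alone and to -5.31 at a minimum -log10 q of 5, and the difference between genes with and without intron turned to -24 with the upstream 500 bp alone. Apart from the midpoint and the window of 1000 bp upstream, these alternatives count fewer peaks, fewer bases or fewer overlaps by construction. The rule of the nearest start codon keeps only part of the overlaps of the main rule, so it cannot raise a count of members. Leaving out centromere peaks was chosen after seeing the data and gave 120 members in WT endogenous. The 183-peak list could not be formed from the 46 peaks of WT GAL-CSE4. No paired analysis was possible because each strain has 1 ChIP library and no result comes from a test. The lowest fold enrichment called was highest in WT GAL-CSE4, at 1.63, and the list also had the lowest median background at the centromeres, 37.89 fragments.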

Other observations

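Among the genes counted beside the members, the yeast elongation factor YEF3 had the same order of places as RPL10 and RPL3. Its summit lay at 513 bp in WT endogenous with a fold enrichment of 2.43, at 498 bp in cdc7-7 endogenous with 2.09, and at -474 bp in cdc7-7 GAL-CSE4 with 1.43. CDC19, the pyruvate kinase gene, had summits at 481, 445 and -407 bp with fold enrichments of 2.11, 1.97 and 1.47. ENO2, an enolase gene, had 1.82 in WT endogenous and 2.54 in cdc7-7 endogenous, both with summits in the coding region, and 1.68 in cdc7-7 GAL-CSE4 with the summit downstream of the gene. TDH3, a glyceraldehyde-3-phosphate dehydrogenase gene, was the only one of the 18 glycolytic genes with a peak in WT GAL-CSE4, with a fold enrichment of 1.91 and a summit downstream of the stop codon at 1275 bp. These genes were chosen after their values were seen.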
